A study of Caenorhabditis elegans with 36 samples.

Results

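The 5 eIF4E genes of Caenorhabditis elegans, ife-1, ife-2, ife-3, ife-4 and ife-5, were found by their symbols in the Ensembl annotation of build WBcel235 and are 5 of the 46093 genes of the count table. Polyadenylated RNA of whole worms was sequenced from young adults collected before egg laying, giving 36 libraries, 6 biological replicates for every group. The groups carrying the labels eat-2, ife-2 or osm-5, all at 20 °C, were each set against wild type labelled 20 °C. The glp-1 group, at 25 °C, was set against wild type labelled 25 °C, and this wild type also against wild type labelled 20 °C. All worms were fed OP50 bacteria on NGM plates, and the growth notes give 20 °C for every library, so the 25 °C of 12 libraries rests on their temperature label. The alleles in the study's methods are eat-2(ad1116), ife-2(ok306), osm-5(p813) and glp-1(e2141) against the N2 strain, and worms were picked by eye rather than synchronised. The 3 comparisons with wild type labelled 20 °C, and that of wild type labelled 25 °C, share the same 6 control libraries.

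eIF4E is the protein that holds the cap at the 5′ end of a messenger RNA. Together with the scaffold eIF4G (ifg-1) and the helicase eIF4A (inf-1) it brings the ribosome to the message, which makes it a main point of control of translation. Worms have several eIF4E isoforms with separate tasks. IFE-1 binds the P granule protein PGL-1 and is needed to make sperm, IFE-3 is the essential isoform and a member of the PETISCO complex through TOFU-6, and IFE-5 is found with them in the germ line. IFE-2 is the main isoform of the soma, whose loss lengthens life, and IFE-4 acts in nerve and muscle cells. Many worm messages receive a trimethylated cap by trans-splicing. IFE-1, IFE-2 and IFE-5 bind this cap as well as the ordinary one, whereas IFE-3 and IFE-4 bind the ordinary one.

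The genes lie apart in the genome and all are annotated as protein coding. On build WBcel235, ife-1 (WBGene00002059) lies on the plus strand of chromosome III at 13343417 to 13344618, ife-2 (WBGene00002060) on the minus strand of X at 381385 to 382709, and ife-3 (WBGene00002061) on the minus strand of V at 6584 to 7828. ife-4 (WBGene00002062) lies on the plus strand of X at 1104212 to 1106251 and ife-5 (WBGene00002063) on the plus strand of II at 12280660 to 12284139. Their exons cover 995, 835, 1118, 850 and 850 bases in the order ife-1 to ife-5. The exons of ife-1 share 246 bases with dro-1 on the same strand and those of ife-3 share 51 bases with idpp-2 on the other strand, so the counts of these pairs are uncertain in that part. The other three genes overlap no gene.

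Libraries held 35524715 to 55878280 counts. The gene mutated in the ife-2 strain did not follow the labels. Its transcript was high in libraries labelled ife-2 and low in those labelled eat-2 (values follow), so groups are named here by their labels alone. Whether the counted reads lie in the part that ok306 deletes was not examined. Transcripts of the germ line were almost absent in libraries labelled ife-2: 12 germ line markers summed to 26.8 to 65.1 CPM, against 2107 to 2598 CPM in wild type labelled 20 °C. They were present in libraries labelled glp-1, at 1781 to 2440 CPM, against 2298 to 3034 CPM in wild type labelled 25 °C, although glp-1(e2141) is known for the loss of the germ line at the restrictive temperature. Whether the groups labelled eat-2, ife-2 and glp-1 hold the strains that their labels name is therefore not settled by these data. Replicate 3 labelled osm-5 had a TMM scaling factor of 0.427, against 0.694 to 1.27 in the other 35 libraries, and the osm-5 results of the eIF4E genes under TMM are given with and without it. CPM below are counts per 1000000 of the TMM-scaled library size over all 36 libraries, and a gene was called at an edgeR adjusted p (Benjamini-Hochberg over all genes tested) below 0.01.

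All 5 eIF4E genes passed the filter on low counts in every comparison. With the label eat-2, 2 rose and 2 fell, where 31.2% of 16627 genes were called (18.4% up and 12.8% down). With the label ife-2, 2 rose and 3 fell, where 85.1% of 16636 genes were called (44.1% up and 40.9% down). The osm-5 group had 1 that rose and 1 that fell, where 18.0% of 16587 genes were called (7.01% up and 10.9% down), and, without replicate 3, 2 that rose and 1 that fell, where 45% of 16514 genes were called. In the glp-1 group 2 rose and 2 fell, where 22.9% of 16513 genes were called (12% up and 10.9% down). In wild type labelled 25 °C 2 rose and 1 fell, where 23.9% of 16506 genes were called (13% up and 11% down). Under the scaling of each comparison the groups did not overlap for 3, 5, 3, 3 and 3 of the 5 genes, in the same order of comparisons, beside 22.6%, 77.5%, 27.6%, 20.4% and 19.4% of all genes.

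Directions depend in part on how libraries are scaled. With TMM, the share of calls that were up was 59.0% for eat-2, 51.9% for ife-2, 39.0% for osm-5, 52.4% for glp-1 and 54.2% for wild type labelled 25 °C. Scaling by total counts gave 26.9%, 36.1%, 13.6%, 78.7% and 19.2% in the same order, with a median log2 fold change over all genes of -0.11, -0.35, -0.27, 0.21 and -0.18, against 0.01, 0.17, 0.05, 0.02 and -0.02 with TMM. Upper-quartile scaling gave 26% for osm-5, and for ife-2 a median of 0.62.

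**Figure D1:**
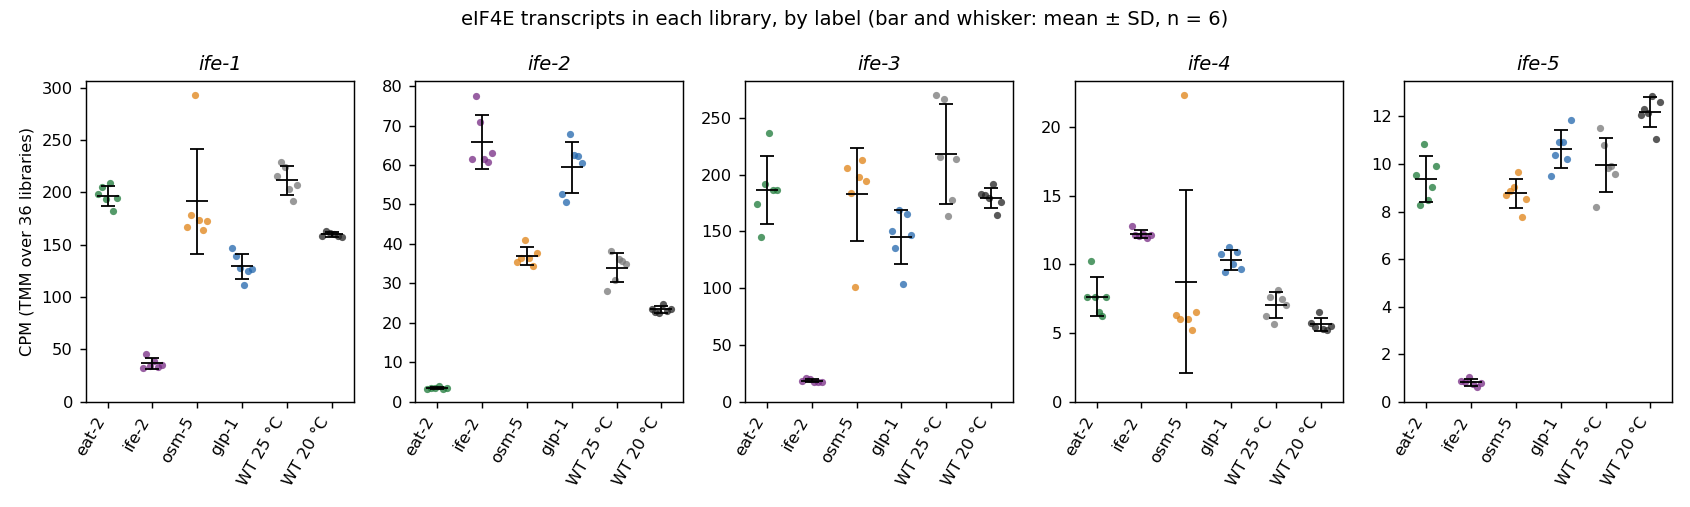
Level of each eIF4E gene in CPM (TMM over 36 libraries, axes from 0), 1 point per library, grouped by label, with the mean ± SD of 6 libraries as bar and whiskers. ife-2 lies at 3.15 to 3.88 CPM with the label eat-2, and ife-1, ife-3 and ife-5 lie lowest with the label ife-2; the single high points of ife-1 (293 CPM) and ife-4 (22.3 CPM) with the label osm-5 are replicate 3.

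ife-2, the somatic isoform and the gene mutated in one strain of the study, had its lowest level in the libraries labelled eat-2. The lowest, median and highest library had 3.15, 3.46 and 3.88 CPM with the label eat-2, against 22.5, 23.2 and 24.9 CPM in wild type labelled 20 °C. No library of one group reached the other. The level was 6.75-fold lower with the label eat-2 (log2 fold change -2.76, SE 0.06, adjusted p = 3.38e-12), the 74th lowest change of 16627 genes, and 0.541% of genes changed by as much in either direction. The transcript was still counted in every one of these 6 libraries, at 135 to 184 reads.

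In libraries labelled ife-2 the same gene stood at 60.7, 62.2 and 77.6 CPM (lowest, median and highest), against 22.5, 23.2 and 24.9 CPM in wild type labelled 20 °C. It was 3.02-fold higher, with no overlap (log2 fold change 1.60, SE 0.06, adjusted p = 6.17e-13). With this label 33.4% of all genes changed by as much in either direction. The rise of ife-2 was kept under every scaling, between 1.07 and 2.05 on the log2 scale. With TMM the libraries labelled ife-2 had the highest mean of this gene in the series, 65.8 ± 6.85 CPM (SD, n = 6). The next mean was 59.4 ± 6.55 CPM with the label glp-1, a difference of 6.42 CPM that is within 1 SD. By total counts this order was reversed without overlap. Libraries labelled glp-1 then had 59.98 to 79.8 CPM, against 52.8 to 59.7 CPM with the label ife-2.

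ife-2 also rose with the labels osm-5 and glp-1 and in wild type labelled 25 °C. It had 34.3, 36.5 and 40.9 CPM in libraries labelled osm-5, above every library of wild type labelled 20 °C (log2 fold change 0.71, SE 0.07, adjusted p = 2.30e-05). Without replicate 3 the log2 fold change was 0.64 (SE 0.04, adjusted p = 3.38e-08); under scaling by total counts the rise with all 6 libraries was 0.36 and was not called. Libraries labelled glp-1 had 50.6, 61.4 and 67.8 CPM, against 28.1, 35.3 and 38.1 CPM in wild type labelled 25 °C. These groups did not overlap, and the gene was 1.78-fold higher with the label glp-1 (log2 fold change 0.83, SE 0.09, adjusted p = 2.31e-05). Wild type labelled 25 °C was itself 1.43-fold above wild type labelled 20 °C (log2 fold change 0.52, SE 0.08, adjusted p = 0.000151), again without overlap. Of neighbouring groups in the order of mean levels with TMM, ife-2 with glp-1 and osm-5 with wild type labelled 25 °C overlapped. The other 3 neighbouring pairs did not.

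ife-4, the isoform of nerve and muscle cells, was the other member that rose with the label ife-2. Its libraries had 11.9, 12.2 and 12.8 CPM (lowest, median and highest) with the label ife-2, against 5.24, 5.48 and 6.51 CPM in wild type labelled 20 °C. The groups were apart and the level was 2.34-fold higher, where 46.8% of all genes changed by as much in either direction. The log2 fold change was 1.23 (SE 0.07, adjusted p = 7.15e-11), and 0.70 under total counts and 1.68 under upper quartiles, both called. Several lists of somatic markers moved with this rise: 7 of 7 body wall muscle markers, 8 of 8 intestinal and 7 of 8 neuronal markers rose (6, 8 and 4 under total counts), with no marker of these lists at 0 in all libraries of a group. Of 6 markers of hypodermis and cuticle, 2 rose and 1 fell (1 and 1 under total counts). Their median log2 fold change was 0.01, beside 0.17 over all genes. With TMM their sum was nonetheless higher, at 4340 to 7171 CPM with the label ife-2, against 2118 to 2504 CPM in wild type labelled 20 °C. The muscle markers summed to 16076 to 23594 CPM with the label ife-2, against 9419 to 10511 CPM in wild type labelled 20 °C, and the neuronal markers to 525 to 684 CPM, against 387 to 433 CPM. The part of these cells in the rise of ife-4 was not tested. In RNA of whole worms, changes in cell number, in RNA per cell and in the share of other tissues cannot be told apart.

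With the label glp-1, ife-4 had 9.44, 10.4 and 11.2 CPM, against 5.67, 7.28 and 8.15 CPM in wild type labelled 25 °C. It was 1.49-fold higher without overlap (log2 fold change 0.58, SE 0.10, adjusted p = 0.000645). There, 0 of 7 muscle markers and 1 of 8 neuronal markers rose (0 and 2 under total counts). Their median log2 fold changes were 0.04 and 0.26, beside 0.02 over all genes, and all 8 neuronal markers had positive values. The part of these cells in the result was not tested. In libraries labelled eat-2 ife-4 had 6.21, 7.60 and 10.2 CPM, overlapping wild type labelled 20 °C, and was called higher by 0.44 on the log2 scale (SE 0.11, adjusted p = 0.00450). That call was lost, at 0.32 with an adjusted p of 0.0391, under total counts and in 7 of the 12 fits that left out 1 library. Wild type labelled 25 °C showed a change of 0.30 on this scale (SE 0.10, adjusted p = 0.0270), which was not called. The 6 osm-5 libraries had 5.23, 6.18 and 22.3 CPM and the fit gave 0.72 (SE 0.37, adjusted p = 0.141); without replicate 3, which holds the highest value, it gave 0.11 (SE 0.08, adjusted p = 0.253). Wild type labelled 20 °C had the lowest mean of ife-4, 5.63 ± 0.47 CPM (SD, n = 6), and every neighbouring pair of groups below the label ife-2 overlapped. The overlap of osm-5 with glp-1 came from replicate 3 alone, as the other 5 osm-5 libraries had 5.23 to 6.50 CPM. By total counts the mean of ife-4 was highest with the label glp-1, at 11.9 CPM, against 10.3 CPM with the label ife-2.

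ife-1, the PGL-1-binding isoform, fell most with the label ife-2. Its lowest, median and highest library there had 32.6, 34.5 and 45.9 CPM, against 157, 159 and 163 CPM in wild type labelled 20 °C, a gap with no overlap. The level was 4.06-fold lower (log2 fold change -2.02, SE 0.08, adjusted p = 5.64e-13). With this label 25.0% of all genes changed by as much in either direction. The ife-1 transcript was still counted at 1129 to 1522 reads in each library labelled ife-2. Its protein partner pgl-1 averaged 0.329 ± 0.24 CPM there, against 345 ± 25.1 CPM in wild type labelled 20 °C (SD, n = 6 each; log2 fold change -9.97, SE 0.25, adjusted p = 5.76e-15). The overlapping gene dro-1 averaged 4.88 ± 0.452 CPM with the label ife-2 and 32.8 ± 2.98 CPM in wild type labelled 20 °C, and how far its reads enter the counts of ife-1 was not tested.

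In the libraries labelled glp-1, ife-1 had 112, 127 and 146 CPM, against 192, 211 and 229 CPM in wild type labelled 25 °C. It was 1.61-fold lower without overlap (log2 fold change -0.69, SE 0.07, adjusted p = 1.49e-05). pgl-1 fell beside it (log2 fold change -0.56, SE 0.09, adjusted p = 0.000473), as did 5 of the 12 germ line and 2 of the 10 sperm markers, while 0 of either list rose. Of the 8 intestinal markers, 4 fell and 1 rose. Under total counts 2 of the germ line markers fell and 2 rose, 0 sperm markers were called, and 2 intestinal markers fell and 1 rose. The part of these tissues in the result was not tested.

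ife-1 was higher in the libraries labelled eat-2, with 182, 196 and 209 CPM (log2 fold change 0.30, SE 0.04, adjusted p = 8.06e-05), all above the wild-type libraries labelled 20 °C. Wild type labelled 25 °C was likewise above them in every library, by 0.38 on the log2 scale (SE 0.05, adjusted p = 4.22e-05). The osm-5 libraries had 164, 173 and 293 CPM. These too lay above all wild-type libraries labelled 20 °C, yet the log2 fold change of 0.33 (SE 0.16, adjusted p = 0.124) was not called and turned to -0.11 under scaling by total counts. Replicate 3 was the library at 293 CPM, and without it the log2 fold change was 0.11 (SE 0.04, adjusted p = 0.0179). By mean level with TMM the order was wild type labelled 25 °C, eat-2, osm-5, wild type labelled 20 °C, glp-1 and ife-2. The first 3 overlapped one another in turn, and each later step was free of overlap. Without replicate 3 the osm-5 libraries had 164 to 178 CPM and did not reach those labelled eat-2. By total counts the osm-5 mean was 167 CPM, below 180 CPM in wild type labelled 20 °C. On that scale the osm-5 libraries other than replicate 3 had 162 to 184 CPM. They overlapped the 169 to 193 CPM of wild type labelled 20 °C.

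ife-3, the essential isoform, had 17.0, 17.9 and 21.1 CPM with the label ife-2, against 165, 181 and 192 CPM in wild type labelled 20 °C. The groups were far apart and the level was 9.03-fold lower (log2 fold change -3.17, SE 0.06, adjusted p = 4.03e-16). With the label ife-2, 17.0% of all genes changed by as much in either direction. tofu-6, which joins IFE-3 to PETISCO, averaged 0.23 ± 0.127 CPM there, against 63.8 ± 6.32 CPM in wild type labelled 20 °C (SD, n = 6 each; log2 fold change -8.04, SE 0.16, adjusted p = 8.06e-16), and had the largest called fall among the 38 initiation factors and partners of the list. ife-3 thus held 639 to 777 reads a library where tofu-6 held at most 15.

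Outside that label its changes were smaller. With the label glp-1 it had 104, 149 and 169 CPM, against 164, 215 and 269.8 CPM in wild type labelled 25 °C, and the groups overlapped. It was called lower (log2 fold change -0.56, SE 0.14, adjusted p = 0.00765), but the call was lost when any of 9 of the 12 libraries was left out and under total counts (-0.38, adjusted p = 0.0185). In libraries labelled eat-2 the log2 fold change was 0.06 (SE 0.09, adjusted p = 0.616), turning to -0.06 under total counts, while wild type labelled 25 °C stood at 0.26 (SE 0.11, adjusted p = 0.0788). The osm-5 libraries had 101, 196 and 213 CPM and the fit gave 0.07 (SE 0.13, adjusted p = 0.712), with the opposite sign under total counts (-0.19) and upper quartiles (-0.04). Replicate 3 was the lowest of them. Without it ife-3 was called higher, by 0.16 (SE 0.04, adjusted p = 0.00271).

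Of the 5 genes, ife-3 had the level most closely tied to that of the germ line markers among libraries without the label ife-2. Over these 30 libraries, the log2 level of ife-3 and that of the summed germ line list had a Pearson r of 0.93 and a Spearman rho of 0.89, and r was 0.89 after the 2 libraries farthest from the median germ line level were left out. For ife-4 r was -0.76 (rho -0.54), and -0.56 without the same 2 libraries. For ife-1 r was 0.11 (rho 0.35) and 0.43 without them, so that its value rests on those 2 libraries. For ife-2 r was -0.22 (rho -0.41) and -0.12 without them, and for ife-5 -0.12 (rho -0.26) and -0.24. These are descriptions over libraries that share groups and scaling factors.

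**Figure D2:**
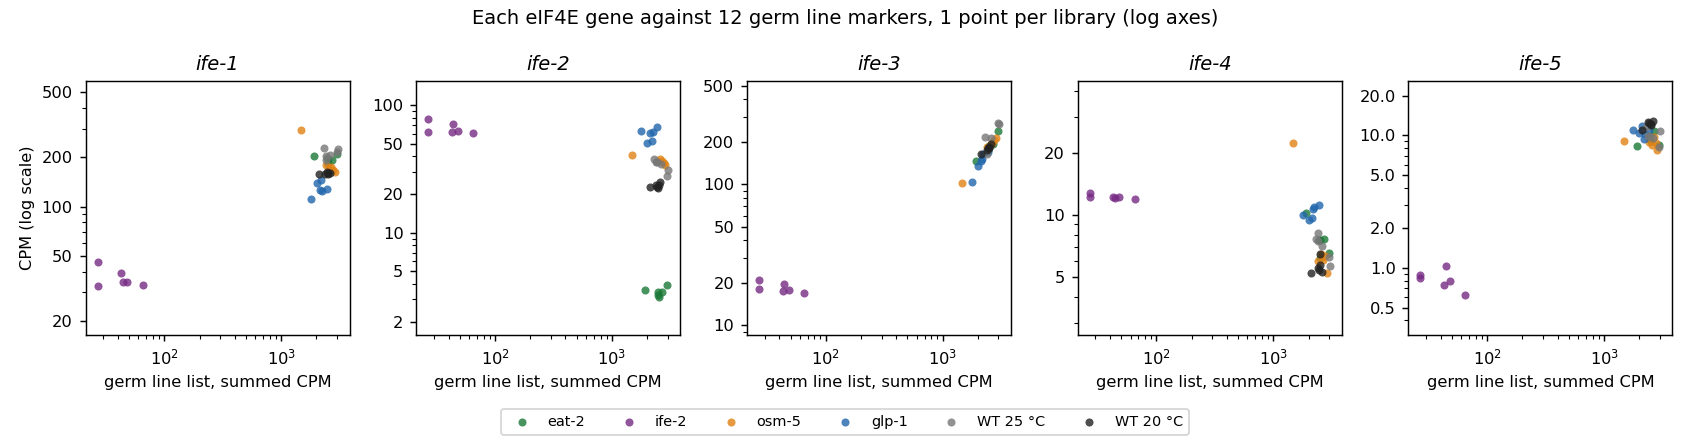
Level of each eIF4E gene (CPM, log axis) against the summed CPM of 12 germ line markers (log axis) in the same library, 1 point per library, coloured by label. The 6 libraries labelled ife-2 stand alone at 26.8 to 65.1 CPM of germ line markers, low in ife-1, ife-3 and ife-5 and high in ife-2, and ife-3 lies along a line with the markers in the other 30 libraries (r of 0.93).

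ife-5 was the least abundant of the germ line members and had the largest fold change of the family. With the label ife-2 it had 0.619, 0.817 and 1.03 CPM, against 11.1, 12.2 and 12.9 CPM in wild type labelled 20 °C, without overlap. It was 13.9-fold lower (log2 fold change -3.79, SE 0.10, adjusted p = 8.57e-15), at 24 to 35 reads a library, against 506 to 645. In that comparison 15.1% of all genes changed by as much in either direction. Beside it 12 of 12 germ line and 10 of 10 sperm markers fell, with medians of -8.70 and -5.31 on the log2 scale under the same fit. Of the oocyte markers 8 fell and 2, perm-2 and perm-4, rose. These counts of markers were the same under every scaling, and the part of the germ line in the falls of ife-1, ife-3 and ife-5 was not tested.

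In the other comparisons with wild type labelled 20 °C ife-5 was lower by less. It had 8.29, 9.28 and 10.9 CPM with the label eat-2, below every wild-type library labelled 20 °C (log2 fold change -0.38, SE 0.08, adjusted p = 0.00186). In the osm-5 group it had 7.78, 8.78 and 9.66 CPM, also below them all (log2 fold change -0.42, SE 0.07, adjusted p = 0.00121), and without replicate 3 the value was -0.47 (SE 0.06, adjusted p = 2.56e-05). With all 6 osm-5 libraries the call was lost under total counts (-0.76, adjusted p = 0.0175). Wild type labelled 25 °C had 8.17, 9.87 and 11.5 CPM, against 11.1, 12.2 and 12.9 CPM in wild type labelled 20 °C. These ranges overlapped in the scaling over 36 libraries, though not in that of the 12 compared. It was called lower (log2 fold change -0.31, SE 0.08, adjusted p = 0.00835), a call that 10 of the 12 fits leaving out 1 library did not keep. Against that group, libraries labelled glp-1 had 9.47, 10.6 and 11.9 CPM, which overlapped it (log2 fold change 0.12, SE 0.09, adjusted p = 0.351). Wild type labelled 20 °C had the highest mean of ife-5, and each group overlapped the next in order except osm-5 and ife-2.

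**Figure D3:**
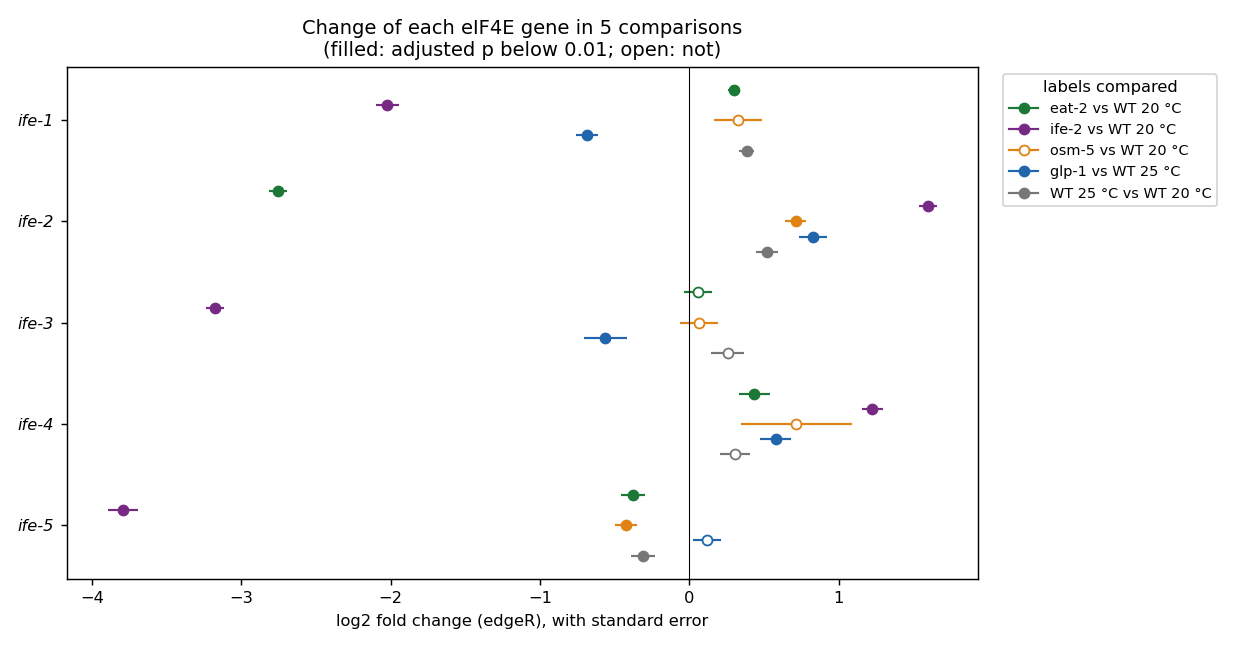
log2 fold change of each eIF4E gene from edgeR in the 5 comparisons, with its standard error; filled points have an adjusted p below 0.01 and open points do not. ife-1, ife-3 and ife-5 lie at -2.02, -3.17 and -3.79 with the label ife-2, where ife-2 and ife-4 lie at 1.60 and 1.23, and ife-2 lies at -2.76 with the label eat-2.

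The make-up of the family was compared per length, as each gene's CPM per kilobase of exon divided by the sum over the 5 genes. In wild type labelled 20 °C, ife-1 and ife-3 each made up 43.4% of the summed level (SD 1.05 and 1.00, n = 6). ife-2 followed with 7.57% ± 0.234, ife-5 with 3.87% ± 0.127 and ife-4 with 1.79% ± 0.151.

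In libraries labelled ife-2 the order was turned over. ife-2 made up 53.4% ± 1.39 of the summed level, ife-1 24.9% ± 1.76, ife-3 11.2% ± 0.356, ife-4 9.82% ± 0.906 and ife-5 0.653% ± 0.104 (SD, n = 6). The share of ife-2 ran from 51.3% to 55.7% there, against 7.27% to 7.77% in wild type labelled 20 °C. The summed level of the family was lower, at 136 to 173 CPM per kilobase with the label ife-2 and 353 to 384 CPM per kilobase in wild type labelled 20 °C. Library by library the ratio of ife-1 to ife-3 per kilobase was 1.96 to 2.52, against 0.938 to 1.08 in wild type labelled 20 °C, and that of ife-5 to ife-1 was 0.0214 to 0.0353, against 0.0816 to 0.094. The germ line members therefore did not fall by one common factor, and neither ratio depends on the scaling of libraries.

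With the label eat-2 the share of ife-2 was 1.07% ± 0.0566, the lowest of the 6 groups, and ife-1 and ife-3 held 51.0% ± 3.39 and 42.7% ± 4.04. ife-4 was above ife-2 in each of these libraries, since the ratio of ife-2 to ife-4 was 0.353 to 0.605, against 3.53 to 4.78 in wild type labelled 20 °C. The summed family level was 362 to 444 CPM per kilobase, overlapping that of wild type labelled 20 °C.

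With the label glp-1 ife-2 held 20.1% ± 2.71 of the family, against 8.81% ± 1.61 in wild type labelled 25 °C, with no overlap between 17.1% to 24.6% and 6.61% to 10.4%. ife-1 and ife-3 held 36.6% ± 3.10 and 36.3% ± 3.32 with the label glp-1, against 45.6% ± 2.43 and 41.3% ± 4.64. The summed level was 305 to 387 CPM per kilobase, below the 415 to 520 CPM per kilobase of wild type labelled 25 °C in every library. Libraries labelled osm-5 without replicate 3 had shares of 41.9% ± 1.65 for ife-1, 43.3% ± 2.19 for ife-3, 10.5% ± 0.397 for ife-2, 2.50% ± 0.192 for ife-5 and 1.72% ± 0.139 for ife-4 (SD, n = 5). In replicate 3 ife-1 alone held 62.5%, ife-3 19.2% and ife-4 5.57%. With all 6 libraries the means were 45.3% ± 8.55 for ife-1 and 39.3% ± 10.0 for ife-3.

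**Figure D4:**
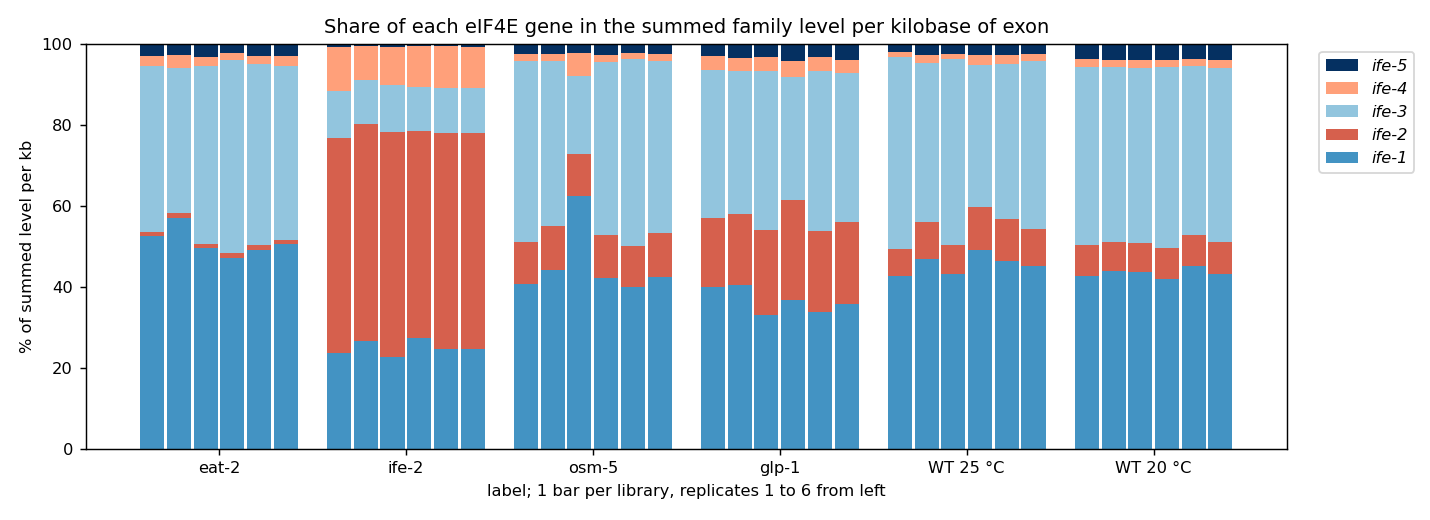
Share of each eIF4E gene in the summed level per kilobase of exon (percent, axis from 0 to 100), 1 stacked bar per library, replicates 1 to 6 from left within each label. ife-2 fills 51.3% to 55.7% of the bars labelled ife-2 and 1.01% to 1.18% of those labelled eat-2, and the third bar labelled osm-5 differs from its neighbours.

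The rest of the initiation machinery was followed through a list of 42 genes, of which 38 could be matched and all 38 were tested. The list also held eIF4E-binding proteins, a kinase, 2 genes of the nuclear cap-binding complex and 5 PETISCO genes. Counts of initiation factors below cover the whole list. ifg-1, the eIF4G scaffold, fell with the label ife-2, with 219, 296 and 336 CPM, against 479, 522 and 545 CPM in wild type labelled 20 °C (log2 fold change -0.74, SE 0.09, adjusted p = 9.68e-07). It was not called in any other comparison, with log2 fold changes between -0.09 and 0.12 (0.08 with the label osm-5 without replicate 3). inf-1, the eIF4A helicase, moved more often. It fell by 0.50 on the log2 scale with the label ife-2, a call lost under upper quartiles (-0.05), and fell by 0.57 with the label glp-1. inf-1 rose by 0.36 with the label eat-2 and by 0.46 in wild type labelled 25 °C, under each scaling tried. In the osm-5 group it was at 0.13 (adjusted p = 0.512), and at 0.24 (adjusted p = 6.18e-05) without replicate 3.

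Other proteins that bind eIF4E moved in opposite directions with the label ife-2. ifet-1, the worm eIF4E transporter and a repressor of messages in the germ line, had 57.2, 66.0 and 69.4 CPM there, against 495, 580 and 635 CPM in wild type labelled 20 °C (log2 fold change -3.03, SE 0.07, adjusted p = 4.02e-15). mxt-1, the homolog of the eIF4E-binding protein Mextli of flies, had 50.2, 53.6 and 54.8 CPM, against 23.7, 25.2 and 25.8 CPM (log2 fold change 1.19, SE 0.05, adjusted p = 2.18e-12). Both directions held under each scaling. Neither was called in the other comparisons, except mxt-1 at -0.22 (adjusted p = 0.00278) with the label osm-5 without replicate 3 (-0.31, adjusted p = 0.0830, with it).

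mnk-1, the homolog of the kinases that phosphorylate eIF4E in mammals, was the list gene with the largest called fall in 3 comparisons. It averaged 185 ± 18.8 CPM with the label eat-2, 177 ± 31.8 CPM with the label osm-5 and 182 ± 17.5 CPM in wild type labelled 25 °C, against 273 ± 21.7 CPM in wild type labelled 20 °C (SD, n = 6 each), the control that these comparisons share. The log2 fold changes were -0.56 (adjusted p = 4.92e-05), -0.58 (adjusted p = 0.00128; -0.51 and 1.35e-06 without replicate 3) and -0.61 (adjusted p = 2.24e-05), in the same order. With the label glp-1 it had the largest called rise, at 248 ± 12.2 CPM, against 182 ± 17.5 CPM in wild type labelled 25 °C (log2 fold change 0.47, SE 0.07, adjusted p = 0.000221).

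As a group, 19 of the 38 list genes rose and 1 fell with the label eat-2 (9 and 2 under total counts), with a median log2 fold change of 0.21, beside 0.01 over all genes. In wild type labelled 25 °C 19 rose and 1 fell (7 and 1 under total counts), with a median of 0.24, beside -0.02 over all genes. Of the 11 subunits of eIF3, the complex that bridges eIF4G and the small ribosomal subunit, 10 rose in each of these comparisons, or 4 and 3 under total counts. The largest called rises were those of iff-2, an eIF5A, with the label eat-2 (log2 fold change 0.57, SE 0.10, adjusted p = 0.000516) and of eif-6 in wild type labelled 25 °C (log2 fold change 0.51, SE 0.06, adjusted p = 1.84e-05). All 7 body wall muscle markers rose with the label eat-2 and 4 of 7 in wild type labelled 25 °C (3 and 1 under total counts). Of 8 intestinal markers 4 rose in each, and of 10 sperm markers 4 and 2 rose (3 and 2 intestinal and 0 sperm markers under total counts). Other lists went the other way. Of 10 oocyte markers 2 and 0 fell (5 and 1 under total counts), with medians of -0.68 and -0.37. Of 8 neuronal markers 1 and 2 fell (3 and 3 under total counts), and 0 of either list rose. Of 12 germ line markers 2 rose and 0 fell in each comparison, with medians of -0.03 and 0.01. Under total counts 2 and 1 of the germ line markers rose and 1 and 3 fell. Of 6 hypodermis and cuticle markers 1 and 0 rose and 0 fell, with medians of 1.04 and 0.35. The part of these tissues in the counts of initiation factors was not tested.

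With the label glp-1, 2 of the 38 rose and 20 fell (2 and 5 under total counts), with a median of -0.32, beside 0.02 over all genes. Here 9 of 11 eIF3 subunits fell (2 under total counts), and the largest called fall was that of iff-1, the eIF5A of the germ line (log2 fold change -0.74, SE 0.13, adjusted p = 0.000723). The germ line and intestinal markers had medians of -0.33 and -0.30 in this comparison, and their part in these counts was not tested. With the label ife-2, 3 of the 38 rose and 33 fell (6 and 21 under upper quartiles), with a median of -0.65, beside 0.17 over all genes. The 5 PETISCO genes all fell, under every scaling, with a median of -5.23, whereas 10 of 11 eIF3 subunits fell with a median of -0.61 (5 fell and 1 rose under upper quartiles). iff-2 rose most there (log2 fold change 1.39, SE 0.09, adjusted p = 3.95e-10), along with mxt-1 and pab-2, a poly(A)-binding protein.

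With the label osm-5 only 2 of the 38 rose, eif-3.K most (log2 fold change 0.42, SE 0.06, adjusted p = 0.000274; 0.36 and 1.49e-06 without replicate 3), and 1, mnk-1, fell; under total counts 0 were called. Without replicate 3, 19 rose and 3 fell. With TMM, 10 list genes in that library lay above all 5 other osm-5 libraries, with a median exon length of 764.5 bases. Another 27 lay below all 5, with a median of 1964 bases. The lengths overlapped, at 506 to 1864 bases above and 1001 to 4771 bases below. Among the short ones was iff-1 (674 bases), at 15322 CPM, against 582 to 651 CPM in the other five. Of the eIF4E genes, with TMM ife-1, ife-2 and ife-4 lay above the other 5, ife-5 lay among them and ife-3, the longest, lay below them. By total counts only ife-4 lay above the other 5, at 9.53 CPM, against 5.17 to 6.92 CPM. On that scale ife-1, ife-2, ife-3 and ife-5 lay below them, with ife-1 at 125 CPM, against 162 to 184 CPM. The part of gene length in their values was not tested.

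**Figure D5:**
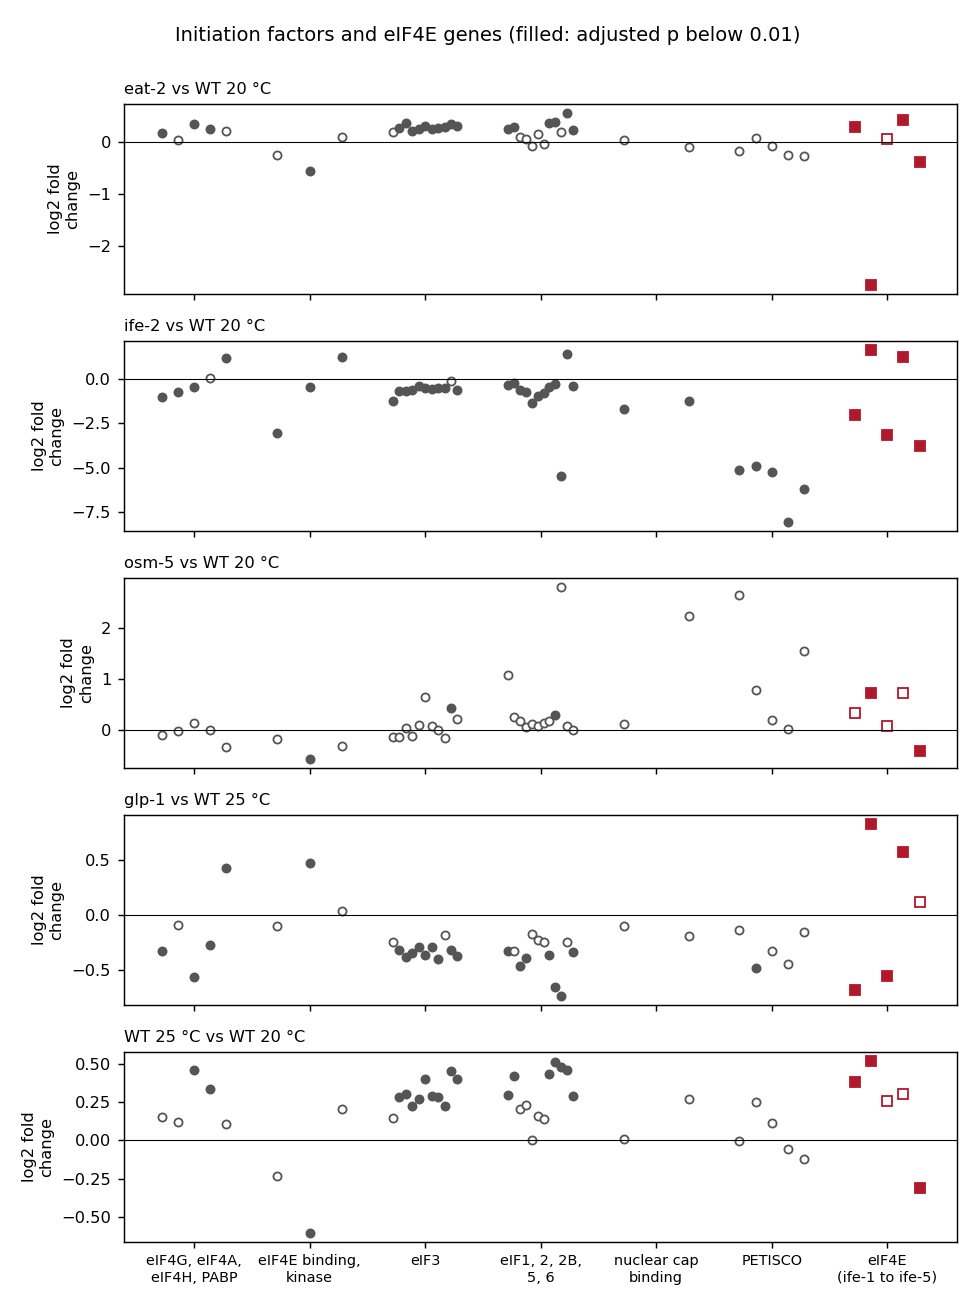
log2 fold change of the 38 initiation factors and eIF4E partners (circles, by complex) and of the 5 eIF4E genes (red squares, ife-1 to ife-5 from left) in each comparison; filled marks have an adjusted p below 0.01, and each panel has its own vertical scale. With TMM, circles of eIF3 sit above 0 with the label eat-2 and in wild type labelled 25 °C and below 0 with the labels ife-2 (where 1 of them rose under upper quartiles) and glp-1, and PETISCO lies between -8.04 and -4.92 with the label ife-2.

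Over the 36 libraries, ife-1, ife-3 and ife-5 had log2 levels that ran together, with a Pearson r of 0.95 for ife-1 and ife-3, 0.92 for ife-1 and ife-5 and 0.96 for ife-3 and ife-5. ife-2 and ife-4 had an r of 0.37. These values describe libraries of which the 6 labelled ife-2 stand far from the rest. The genes most like ife-1 among 17457 were snu-13 (r of 0.99), a protein of the splicing and snoRNA machinery, Y1A5A.1 and the C-type lectin gene clec-117, and those most like ife-3 were WBGene00007706, the ATPase gene ruvb-1 and T24H10.1. ife-5 was most like ani-2, the anillin that builds the common cytoplasm of the germ line (r of 0.99; 0.202 CPM with the label ife-2 and 205 CPM in wild type labelled 20 °C), with WBGene00013252 and T26A5.2 next.

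The gene most like ife-2 was haf-6 (r of 0.92), a transporter gene needed for efficient RNA interference, followed by gakh-1 and srp-6 (r of 0.82 and 0.81). With TMM, like ife-2, haf-6 had its lowest mean with the label eat-2, 7.47 CPM, against 32.1 CPM in wild type labelled 20 °C. Its highest mean was with the label ife-2, 47.3 CPM. ife-4 was most like swm-1 (r of 0.93), which encodes a protease inhibitor that holds back sperm activation, F41E6.12 and T23B3.2. Membership of these short lists depended on the measure: of the 3 genes each, ife-1, ife-3, ife-4 and ife-5 kept 0 and ife-2 kept 1 under Spearman correlation. Without osm-5 replicate 3, ife-1 and ife-4 kept 0, ife-2 and ife-3 kept 1 and ife-5 kept 3.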

How the data were processed

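The data are 36 libraries of polyadenylated worm RNA. The authors deposited one table of expected counts per gene, made, by the study's methods and the labels, with cutadapt, STAR (quality on WBcel235, Ensembl release 90), Salmon and tximport in a bcbio-nextgen pipeline; tool versions are not given in the sources used here. Estimates were rounded to whole counts. Whether strand was used is not stated. Names came from Ensembl release 115.

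edgeR 4.0.16 (R 4.3.3) quasi-likelihood fits with TMM used the 12 libraries of each comparison and genes reaching 10 counts in 6 or more libraries, with Benjamini-Hochberg adjustment and a threshold of 0.01. The fit was tested on simulated data. Levels are CPM by TMM over all libraries. Correlations used log2 CPM with a prior count of 2. The rule for named genes took the 5 members, the 3 most alike genes of each, 6 known partners, and the largest called rise and fall of the initiation list; genes named outside it (dro-1, idpp-2, perm-2, perm-4, pab-2, and iff-1 with the label osm-5) were chosen after their values were seen. Unmatched list genes were eif-3.M, iftb-1, ppp-1 and eif-5. The members and gene lists were chosen with earlier results of these data known. Alternatives were DESeq2 1.42.0, other scalings, no filter, a replicate block, 1 fit of all libraries, other thresholds and leaving out each library. The labels name no batch. Sequences were not used here.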

Additional observations from a re-analysis of the deposited data

Results flagged for a closer look

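In 30 sets of 6 libraries (5 genes in 6 groups), 5 had 1 library whose distance to its nearest neighbour was large for the range of the group. Chance alone gives such a library in about 1 of 20 sets. The 5 genes share libraries and scaling factors, so the 30 sets are not independent. Replicate 3 labelled osm-5 accounted for 3 of the 5 flagged sets: ife-1 at 293 CPM (nearest 178 CPM), ife-3 at 101 CPM (nearest 184 CPM) and ife-4 at 22.3 CPM (nearest 6.50 CPM). The other 2 were ife-4 at 10.2 CPM in replicate 2 labelled eat-2 (nearest 7.63 CPM) and ife-4 at 12.8 CPM in replicate 1 labelled ife-2 (nearest 12.2 CPM). These are TMM levels. By total counts ife-1 in replicate 3 labelled osm-5 was the lowest of its group, at 125 CPM, against 162 to 184 CPM in the other 5. With TMM, the germ line markers in that library summed to 1473 CPM, against 2412 to 2856 CPM in the other 5, and the muscle markers to 4202 CPM, against 7547 to 10088 CPM.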

How the results depend on the processing

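Of 200 values from other settings, 181 kept their direction and side of the threshold, 13 lost a call, 2 gained one and 4 turned round; of 300 values with 1 library left out, 271, 26, 2 and 1 did. The cause of the changes was not tested. Among the 200, the values at an adjusted p below 0.05 come from the main fit itself. Those values could gain a call but could neither lose one nor turn round. Total counts gave ife-3 -0.061 and ife-4 0.32 (log2, eat-2), and, for osm-5, ife-1 -0.11, ife-2 0.36, ife-3 -0.19 and ife-5 -0.76, with 1688 genes called. With the same scaling ife-3 was -0.38 for glp-1, and 11, 0, 7 and 8 initiation factors were called for eat-2, osm-5, glp-1 and wild type labelled 25 °C. Upper quartiles gave ife-3 -0.042 for osm-5 and ife-5 -0.29 for wild type labelled 25 °C. There ife-5 was -0.30 with DESeq2 size factors and -0.27 with no filter, and ife-4 was 0.32 and called in DESeq2. One fit of all 36 libraries called 2105, 6199 and 2267 genes and 10, 11 and 12 initiation factors for eat-2, osm-5 and wild type labelled 25 °C, and gave, uncalled, ife-1 0.30 and ife-4 0.44 (eat-2), ife-4 0.55 (glp-1) and ife-5 -0.29 (wild type labelled 25 °C). An adjusted p below 0.05 called 8169, 5810, 5949 and 6369 genes (eat-2, osm-5, glp-1, wild type labelled 25 °C), 8 initiation factors for osm-5, and ife-4 at 0.30 for wild type labelled 25 °C. A 2-fold minimum left 963, 1406, 1153 and 835 genes and 0 initiation factors there, and 15 initiation factors for ife-2. Replicate numbers did not pair the libraries (correlations of same-numbered libraries from -0.58 to 0.50; 0 to 2 of the libraries of a comparison correlated best with their own number). With them as a replicate block, 1424 genes and 1 initiation factor were called for osm-5 and 2495 and 13 for glp-1, ife-5 was -0.43 for osm-5 and -0.32 for wild type labelled 25 °C, both uncalled, and no other call of the 5 genes changed. Leaving out 1 library moved ife-3 between -0.024 (without eat-2 replicate 4) and 0.14 and ife-4 between 0.36 and 0.48 for eat-2. For osm-5 it moved the genes called between 2168 and 7435, the initiation factors between 2 and 22 and ife-3 between 0.021 and 0.16, the last of each without replicate 3. For glp-1 ife-3 ran from -0.63 to -0.48, and for wild type labelled 25 °C ife-4 ran from 0.28 to 0.38 (called without its replicate 3) and ife-5 from -0.34 to -0.24. Shares per kilobase of coding sequence gave ife-2 49.5% with the label ife-2 and 6.42% in wild type labelled 20 °C. Depth limits ife-5 with the label ife-2, at 24 to 35 counts.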
